A study of Mus musculus with 52 samples.

Results

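The collagen crosslinking enzymes described here are the 5 lysyl oxidases Lox, Loxl1, Loxl2, Loxl3 and Loxl4 and the 3 lysyl hydroxylases Plod1, Plod2 and Plod3. They were picked by gene symbol from a table of normalized counts, which gave 8 genes of 27525. The table covers bulk RNA-seq of 32 subcutaneous KPC tumors, 8 in each of 4 treatment groups, each tumor sequenced by itself. All 8 enzymes passed the filter on low values in all 7 comparisons.

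KPC tumors were grown from a line of mouse pancreatic tumor cells that carry Trp53 LSL.R172H/+ and Pdx1-Cre, in which the pancreatic promoter Pdx1 drives Cre, injected under the skin of male C57BL/6NHsd mice of 8 to 10 weeks. Every group shared these cells, this host and collection on day 14. Tumors were left untreated, or received 2 µg of ADU-S100, a cyclic dinucleotide that activates STING, once into the tumor. Others received the agonistic antibody 4H8 against LTβR, 100 µg given 4 times intraperitoneally, and the combination group received both agents. The comparisons ask what each agent and the combination did to the enzymes, and whether the combination differed from the sum of the single agents on the log2 scale (the interaction). The 3 comparisons with untreated tumors share those 8 control tumors, and comparisons between treated groups share tumors as well, so their values are given side by side and are not independent.

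Collagen chains are modified in the endoplasmic reticulum before secretion. There the lysyl hydroxylases turn chosen lysines into hydroxylysines, and Plod2 acts mainly on the lysines in the short ends of the chain, which gives crosslinks that are hard to break. Outside the cell the copper-dependent lysyl oxidases turn lysines and hydroxylysines into aldehydes, which then react with neighbouring chains of collagen or elastin. In pancreatic tumors the collagen-rich stroma is made largely by fibroblasts, and its stiffness depends on such crosslinks.

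The lysyl oxidases carry a shared copper-binding stretch with 4 histidine codons. It was found by script in the coding sequence of all 5, and is shown here because it is the feature that defines the family while the genes differed in their response. Histidine codons are in capitals, the sequences are those of GENCODE transcripts on GRCm38, read on the coding strand, and each stretch of 33 bases is interrupted by an intron. Those of the 4 Lox-like genes are as follows.
Loxl1: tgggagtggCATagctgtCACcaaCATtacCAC
Loxl2: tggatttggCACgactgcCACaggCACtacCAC
Loxl3: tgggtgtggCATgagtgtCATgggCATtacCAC
Loxl4: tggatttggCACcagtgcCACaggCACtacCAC

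The Loxl1 stretch lies on the minus strand of chromosome 9 at chr9:58294359-58294381 and chr9:58293720-58293729. For Loxl2 it lies on the plus strand at chr14:69682316-69682338 and chr14:69689028-69689037. For Loxl3 it lies on the plus strand at chr6:83049995-83050017 and chr6:83050116-83050125, and for Loxl4 on the minus strand at chr19:42599877-42599899 and chr19:42598807-42598816. Loxl2 and Loxl4 were alike at 31 of these 33 bases, more than any of the other 5 pairs of Lox-like genes, which were alike at 21 to 25. Loxl2 and Loxl4 had the most positive and the most negative fitted change of the 8 enzymes in the combination group, as given below. The stretch is coding sequence, and a link between it and transcript levels was not tested. Lox itself was not among the pairs compared. Over whole transcripts 1 of 28 pairs of enzymes, Lox with Loxl1, shared any run of 31 bases, and it shared 2 of them.

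Per kb of exon, Plod3, the lysyl hydroxylase that also transfers sugars to hydroxylysine, had the highest mean level in untreated tumors, 626.7 ± 25.5 normalized counts per kb (SD, n = 8). Loxl1, which is known for its part in elastic fibres, followed at 582.5 ± 48.2, and Loxl3 at 457.9 ± 93.2. Plod2 at 305.4 ± 38.9, Lox, the founding member of its family, at 300.7 ± 94.2 and Loxl2, which oxidizes collagen IV of basement membranes, at 258.9 ± 47.3 came next. Plod1, which hydroxylates lysines within the collagen helix, stood at 202.4 ± 16.2. Its merged exons span 6765 bases against 3243 in its longest coding transcript, where Lox has 4778 and 4741. The level of Plod1 per kb, and so its place in this order, therefore depends on the length used. Loxl4 was lowest at 92.1 ± 8.3, and its range did not meet that of Plod1. Each of the other 6 neighbours in this order overlapped in range. In combination tumors the order was Loxl1 (810.5 ± 137), Plod3 (623 ± 29.6), Loxl2 (593.8 ± 207), Loxl3 (571 ± 75.3), Lox (492.2 ± 122), Plod1 (295.7 ± 72.5), Plod2 (256.6 ± 40.2) and Loxl4 (59.6 ± 6.28), all as normalized counts per kb of exon. Again only Loxl4 did not overlap the gene next to it.

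**Figure D1:**
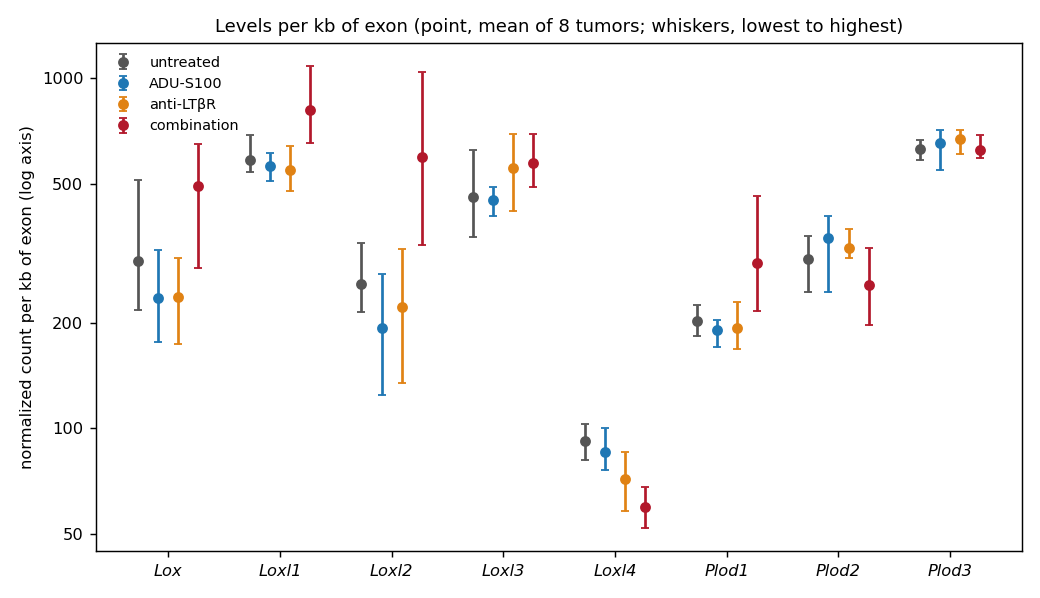
Normalized counts per kb of exon (log axis) for the 8 enzymes, with points at the mean of 8 tumors and whiskers from the lowest to the highest tumor, colored by group. Loxl4 lies lowest in every group, at a mean of 92.1 in untreated and 59.6 in combination tumors, and Loxl2 moves from 258.9 to 593.8.

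As a share of the 5 lysyl oxidases per kb of exon, Loxl2 rose from a mean of 15.4% ± 2.66 (SD, n = 8) in untreated to 23% ± 3.9 in combination tumors, with ranges of 11.3 to 20.6% and 17.4 to 30.0%. Loxl4 took 5.48% ± 0.47 and 2.42% ± 0.45, with ranges of 4.48 to 6.05% and 1.70 to 3.02%. Of the 3 lysyl hydroxylases, Plod1 took 17.8% ± 1.1 in untreated and 25% ± 4.6 in combination tumors. Its highest untreated tumor was at 19.1% and its lowest combination tumor at 19.9%, while its plain counts overlapped between these groups. These shares describe the same counts as the levels and were not tested. A share also falls when other genes of the family rise, and it depends on the exon lengths used. No background over all genes was computed for such shares.

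In combination against untreated tumors, 7 of the 8 enzymes were called. Of these, 5 were higher (Lox, Loxl1, Loxl2, Loxl3 and Plod1) and 2 lower (Loxl4 and Plod2) at an adjusted p below 0.05 in limma, which tests log2(normalized count + 1), and Plod3 was not called. Their median log2 change was 0.40, against a median of -0.02 over all genes tested. Over all genes tested, 19.6% were called higher and 23.6% lower, so calls as such were frequent. With a fold change of at least 2 asked for as well, 1 enzyme, Loxl2, was higher and none lower, against 5.16% and 0.952% of genes. A total RNA measure cannot tell more transcript per cell from more cells of the kind that makes it.

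Loxl2 had the largest change. Its median was 1283 normalized counts in untreated tumors, which ran from 1158 to 1830, and 3066 in combination tumors, which ran from 1801 to 5624. All but 1 of the 8 combination tumors lay above the highest untreated tumor. The log2 change was 1.15 (95% interval 0.78 to 1.52, adjusted p 0.000107, limma). Combination tumor 5 held the 5624, and the next highest held 3489 normalized counts.

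Lox had a median of 1267 normalized counts in untreated tumors, with a range of 1038 to 2444, and of 2196 in combination tumors, with a range of 1369 to 3096. The groups overlapped, since only 3 of 8 combination tumors exceeded the highest untreated tumor, and untreated tumor 3 was the high one of its group. The log2 change was 0.72 (0.34 to 1.1, adjusted p 0.00399, limma). Loxl1 ran from 1779 to 2270 (median 1890) in untreated and from 2147 to 3573 (median 2709) in combination tumors. Of the 8 combination tumors, 6 lay above every untreated tumor, and the log2 change was 0.46 (0.28 to 0.65, adjusted p 0.000575, limma).

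Plod1 lay between 1244 and 1522 normalized counts in untreated tumors, around a median of 1369, and between 1462 and 3116 in combination tumors, around 1871. Again 7 of 8 combination tumors exceeded the highest untreated one, and the highest of them was tumor 5, the same that was highest in Loxl2. The log2 change was 0.52 (0.28 to 0.75, adjusted p 0.0014, limma).

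Loxl3 showed a smaller difference, from 1616 to 2872 normalized counts (median 2133) in untreated and from 2249 to 3183 (median 2611) in combination tumors. Only 2 combination tumors lay above every untreated tumor. The log2 change was 0.33 (0.09 to 0.57, adjusted p 0.0252, limma), and 3 of 16 alternative settings lost the call (highest adjusted p 0.0674). Of its exon bases, 11.6% lie on those of Htra2, a mitochondrial protease gene on the opposite strand. Htra2 itself had a log2 change of 0.11 that missed the threshold (adjusted p 0.21, limma). The libraries were made with a strand-marking kit, but the counting was not stated to use strand, so shared reads cannot be assigned.

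Loxl4 moved the other way. Untreated tumors held 342.1 to 435.3 normalized counts, with a median of 389.3, and combination tumors 219.3 to 287.1, with a median of 254.2. Every combination tumor lay below every untreated tumor. Loxl4 was the only 1 of the 8 enzymes whose groups did not overlap, against 10.3% of 17649 genes without overlap in either direction. The log2 change was -0.63 (-0.78 to -0.47, adjusted p 1.82e-05, limma).

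Plod2 went from a median of 1637 normalized counts in untreated tumors (lowest 1319, highest 1906) to 1429 in combination tumors (lowest 1063, highest 1768), with 2 of 8 combination tumors below every untreated tumor. Its log2 change of -0.26 (-0.46 to -0.05, adjusted p 0.0449, limma) lay close to the threshold. The call was lost in 12 of 16 alternative settings (highest adjusted p 0.274), among them the fit with the replicate block (adjusted p 0.0531), while the direction held in all 16. Plod3 ran from 2646 to 3012 normalized counts (median 2865) in untreated and from 2679 to 3107 (median 2792) in combination tumors, so the groups lay on each other. Its log2 change was -0.01 (-0.09 to 0.07, adjusted p 0.867, limma), an interval narrower than that of any other enzyme in this comparison. Of its exon bases, 11.7% lie on those of Znhit1 on the opposite strand.

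**Figure D2:**
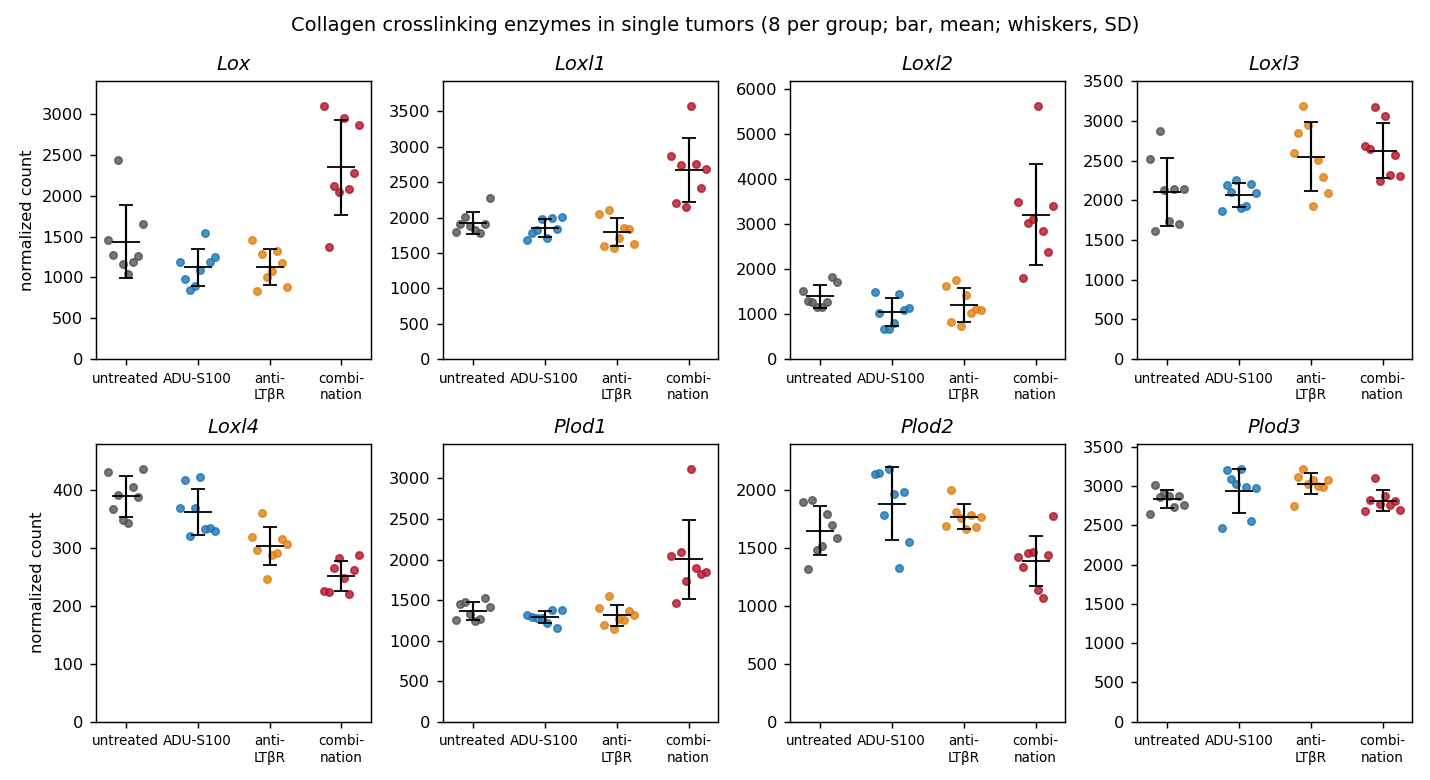
Normalized counts of the 8 enzymes in each of 32 tumors, with 8 tumors per group, a bar at the mean and whiskers of 1 SD. Loxl2, Lox, Loxl1 and Plod1 sit higher in the combination group than in the other 3, Loxl4 steps down from untreated to combination tumors, and Plod3 stays between 2466 and 3217.

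Neither agent alone gave a called rise in any enzyme. With ADU-S100 alone, none of the 8 enzymes was called, nor was any of 16613 genes (0% higher and 0% lower, limma). At an unadjusted p below 0.05, limma gave 2408 genes (14.5%) and 1 of the enzymes, Loxl2. DESeq2 on recovered reads called 46 genes higher and 11 lower, and edgeR called 0 and 1, with no enzyme among them. The value for Loxl2 was a log2 change of -0.46 (-0.81 to -0.11, adjusted p 0.29, limma), from normalized counts of 674.9 to 1493 (median 1064), with 6 of 8 tumors below the lowest untreated tumor. For Lox it was -0.33 (-0.66 to 0.0009, adjusted p 0.345), and for the other 6 enzymes the fitted log2 changes lay between -0.11 and 0.18.

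With anti-LTβR alone, 1 of the 8 enzymes, Loxl4, was called, and it was lower, against 7.21% of genes called higher and 8.1% lower. No enzyme was called at 2-fold or more, against 0.653% and 0.383% of genes. Loxl4 ran from 245.6 to 360 normalized counts (median 300.2), and 7 of 8 tumors lay below every untreated tumor. Its log2 change was -0.36 (-0.52 to -0.21, adjusted p 0.00601, limma). Loxl3 ran from 1924 to 3186 normalized counts (median 2557), close to its range in combination tumors, but its log2 change of 0.28 (0.02 to 0.54) missed the threshold (adjusted p 0.125, limma). Without untreated tumor 3 it passed (0.35, adjusted p 0.0495), and over all alternatives its adjusted p ran from 0.0495 to 0.195. Lox at -0.32 (adjusted p 0.163) and Loxl2 at -0.26 (adjusted p 0.279) were also not called.

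**Figure D3:**
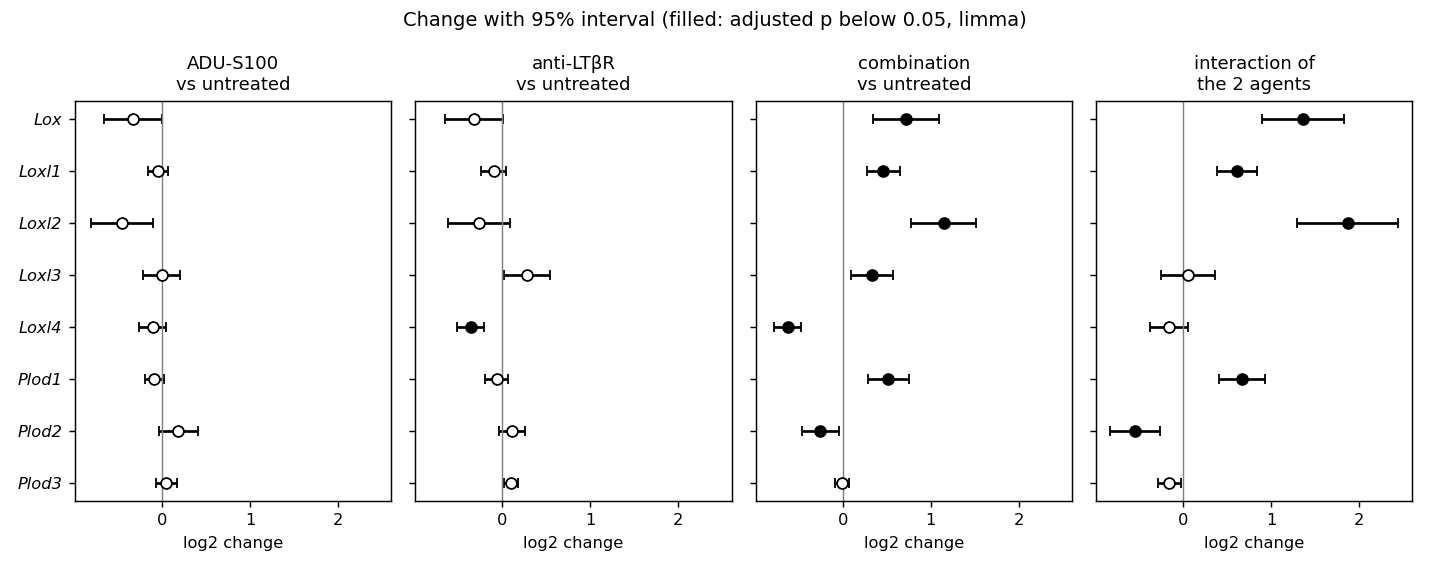
Log2 change with its 95% interval for each enzyme with ADU-S100, anti-LTβR and the combination against untreated tumors, and the interaction of the 2 agents. Filled points passed an adjusted p of 0.05 in limma. Lox, Loxl1, Loxl2 and Plod1 lie to the right of 0 for the combination and for the interaction, and Loxl4 lies to the left for anti-LTβR (-0.36) and for the combination (-0.63).

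The interaction tests whether the log2 change in the combination differs from the sum of those with the single agents. It was positive for 4 of the 8 enzymes and negative for 1, against 7.33% and 11% of all genes tested. The pattern was not particular to the enzymes. Of the lists described below, 8 of 11 collagen and elastin genes, 7 of 8 fibroblast and 7 of 8 endothelial markers were positive, none negative. Their median interactions were 0.80, 1.32 and 0.80, against 0.34 for the enzymes. Macrophage and lymphocyte markers had 1 of 8 positive each. At 2-fold or more, Lox and Loxl2 were positive and none negative, against 2.71% and 0.351% of genes. For Loxl2 the single agents summed below 0 while the combination stood at 1.15, which gave an interaction of 1.87 (1.30 to 2.44, adjusted p 0.000258, limma). Lox followed at 1.37 (0.90 to 1.83, adjusted p 0.000393), then Plod1 at 0.67 (0.41 to 0.93, adjusted p 0.000921) and Loxl1 at 0.61 (0.39 to 0.84, adjusted p 0.000611). For Plod2 both single agents had values above 0 (0.18 and 0.11, neither called) and the combination a value below 0, and the interaction was -0.55 (-0.83 to -0.27, adjusted p 0.00633, limma).

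The other 3 enzymes showed no called interaction. Loxl4 gave -0.16 (-0.37 to 0.06, adjusted p 0.305), where its single-agent values were -0.11 and -0.36 and that of the combination -0.63. For Loxl3 the interaction was 0.06 (-0.25 to 0.36, adjusted p 0.829), with values of -0.0049, 0.28 and 0.33. These intervals still hold differences of up to 0.37 in size, so equality with the sum was not shown. Plod3 gave -0.16 (-0.29 to -0.02, adjusted p 0.0929), which passed with the replicate block (adjusted p 0.0314). Over all genes limma called 1293 interactions positive and 1947 negative. On recovered reads edgeR called 1433 and 1471 with TMM, 1476 and 1399 with RLE, and 1313 and 1296 with library totals. In each of these edgeR fits the 4 positive enzyme calls and the 1 negative call held in number.

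Against anti-LTβR alone, the combination had 4 enzymes higher (Lox, Loxl1, Loxl2 and Plod1) and 3 lower (Loxl4, Plod2 and Plod3), against 11.3% and 15.3% of all genes. Over all genes limma called 1917 higher and 2587 lower. On recovered reads edgeR called 2087 and 1742 with TMM, 2074 and 1781 with RLE, and 1884 and 1849 with library totals. With at least 2-fold asked for, Lox and Loxl2 were higher and none lower, against 1.96% and 0.148% of genes. The largest value was that of Loxl2 at 1.41 (0.96 to 1.86, adjusted p 0.000738, limma), followed by Lox at 1.04, Plod1 at 0.58 and Loxl1 at 0.56. Loxl4 stood at -0.27 (adjusted p 0.0187), Plod2 at -0.36 (adjusted p 0.00474) and Plod3 at -0.11 (adjusted p 0.0379). The call of Plod3 was lost in 5 of 10 alternative settings, and that of Loxl4 in 1 of 15 (highest adjusted p 0.136). Loxl3 was not called (0.05, interval -0.17 to 0.27).

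Against ADU-S100 alone, the combination had the same 5 enzymes higher and the same 2 lower as against untreated tumors, with 20.2% and 26% of all genes called. At 2-fold or more these were Lox and Loxl2 higher and none lower, against 5.46% and 0.714% of genes. The log2 changes were 1.61 for Loxl2 (adjusted p 3.14e-05, limma), 1.05 for Lox, 0.61 for Plod1, 0.51 for Loxl1, 0.34 for Loxl3, -0.44 for Plod2 and -0.52 for Loxl4. In 4 of the 8 enzymes (Loxl1, Loxl2, Loxl4 and Plod1) the groups did not overlap, against 11.4% of 17649 genes. Between the single agents, none of the 8 enzymes was called by limma, against 3.38% of genes called higher and 3.04% lower with anti-LTβR. At an unadjusted p below 0.05 there were 2 of 8 enzymes, near the background of 3993 of 16649 genes (24%). Those 2 were Loxl3 at 0.29 (adjusted p 0.0641) and Loxl4 at -0.26 (adjusted p 0.0546), which DESeq2 on recovered reads called, 1 higher and 1 lower.

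The enzymes act on collagen and elastin, and 9 of 11 of these substrate genes were higher in combination than in untreated tumors, none lower (limma, median log2 change 0.91), against 19.6% and 23.6% of all genes. Col1a2, Col3a1 and Col1a1, which encode the chains of the main fibrillar collagens, had log2 changes of 1.66, 1.58 and 1.54, all larger than that of any enzyme here. Counts of Col1a1 ran from 32540 to 54580 in untreated tumors and from 52930 to 196400 in combination tumors. None of the 11 was called with anti-LTβR alone, against 7.21% of genes higher and 8.1% lower, or with ADU-S100 alone, where no gene was called.

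Set against these collagens, the enzymes had lower ratios in the combination group. Per 1000 normalized counts of Col1a1, Col1a2 and Col3a1 summed, Loxl2 ran from 11.3 to 17.7 (median 13.4) in untreated and from 8.86 to 12.1 (median 9.85) in combination tumors. Plod2 ran from 12.1 to 22.2 (median 16) and from 2.05 to 8.96 (median 4.71), and Loxl4 from 2.93 to 5.06 (median 3.65) and from 0.45 to 1.5 (median 0.81). Plod1 ran from 10.9 to 15.4 and from 5.18 to 9.83. Loxl2 ran from 8.32 to 13.7 (median 11.1) with ADU-S100 alone and from 9.34 to 13.5 (median 10.8) with anti-LTβR alone. Both of these ranges overlapped that of Loxl2 in combination tumors. In Loxl4, Plod1, Plod2 and Plod3, 4 of the 8 enzymes, every combination tumor lay below every untreated tumor. Since the collagen sum is the shared denominator, the same held for 50.4% of 17649 genes, and the count of enzymes is near that background. Ratios are given as a description, with no test.

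**Figure D4:**
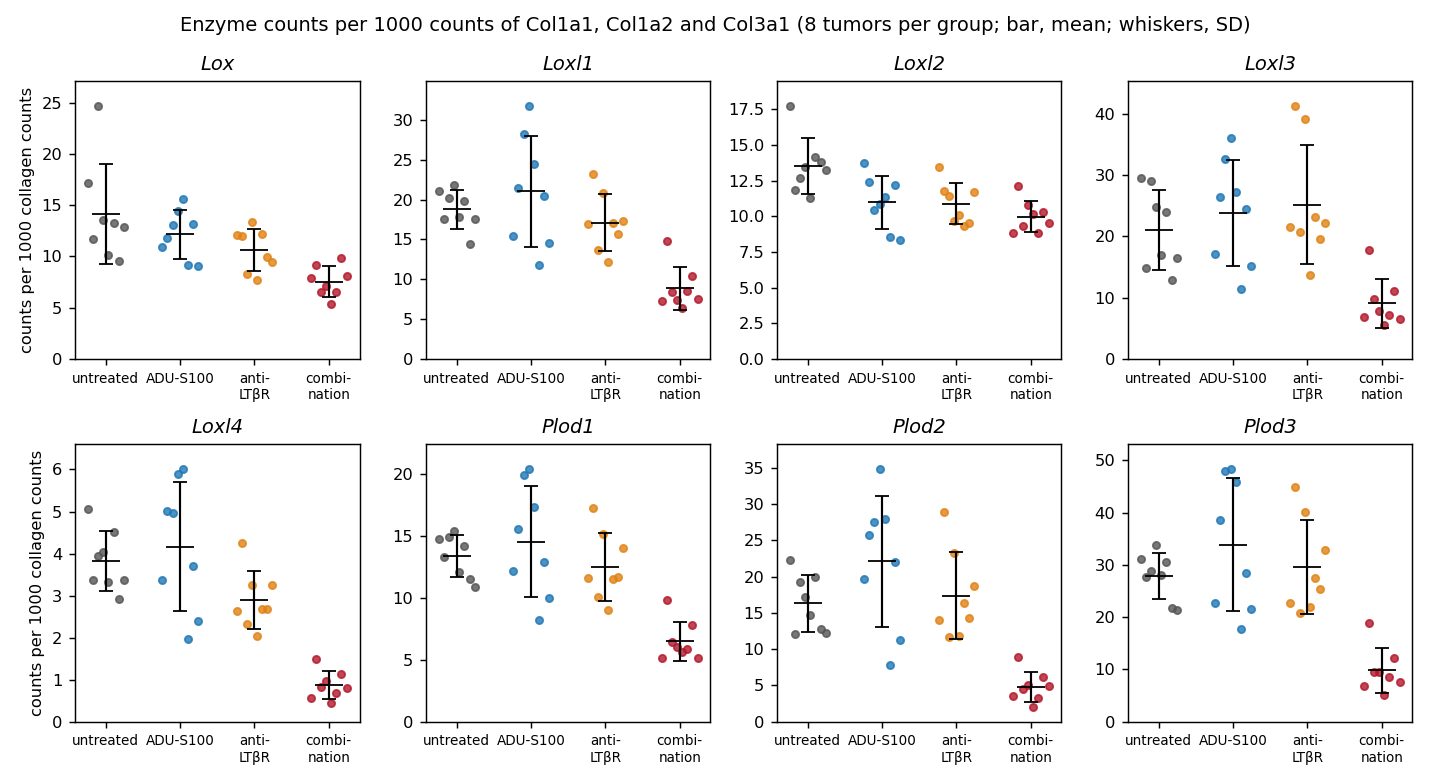
Counts of each enzyme per 1000 normalized counts of Col1a1, Col1a2 and Col3a1 in each of 32 tumors, with 8 tumors per group, a bar at the mean and whiskers of 1 SD. All 8 enzymes have their lowest mean in the combination group, for example 4.83 for Plod2 against 16.3 in untreated tumors.

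Of 18 genes for procollagen modification and secretion, 12 were higher and 2 lower in combination against untreated tumors (limma), where 19.6% of all genes were higher and 23.6% lower. The largest changes were in P3h3 (log2 change 1.12), a member of the prolyl 3-hydroxylase family, in Colgalt2 (0.98), a collagen galactosyltransferase at no more than 27.7 normalized counts in any tumor of either group, and in Fkbp10 (0.90), a chaperone of procollagen. P3h3 ran from 298 to 402.8 normalized counts in untreated and from 487.2 to 1137 in combination tumors, with no overlap. The 2 lower genes were P3h4 (-0.18), which encodes a partner of Plod1 in the endoplasmic reticulum, and P4ha1 (-0.13), a prolyl 4-hydroxylase subunit. Of 13 tested genes for propeptide removal and other crosslinking, 6 were higher, led by Adamts14 (0.66), a procollagen N-proteinase, Fbln5 (0.55), an elastic fibre protein, and Adamts2 (0.54). Pcolce2, a procollagen C-proteinase enhancer, was the 1 lower gene (-0.54). Bmp1, the proteinase that releases active Lox from its proform, had a log2 change of 0.48 (adjusted p 0.00179).

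Of 12 genes of the response to low oxygen, a known inducer of Plod2, Lox and Loxl2, 4 were lower (with the largest changes in Vegfa at -0.46, Slc2a1 at -0.37 and Pgk1 at -0.34) and 1 higher (Egln3 0.43) in combination against untreated tumors. With 23.6% of all genes lower and 19.6% higher, these counts are near the background. With ADU-S100 alone none of the 12, like no gene at all, was called, and with anti-LTβR alone 1 was lower, against 8.1% of genes.

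Transcripts that mark cell types also differed between the groups, and cell shares were not measured. Of 8 fibroblast markers, 7 were higher in combination than in untreated tumors and none lower (median log2 change 1.09), and their summed normalized counts ran from 9300 to 17260 in untreated, 7001 to 17700 in ADU-S100, 9419 to 16500 in anti-LTβR and 17780 to 50490 in combination tumors. Of the endothelial markers 8 of 8 were higher, and sums ran from 1408 to 2065 in untreated and from 2672 to 3909 in combination tumors. Mural cell and macrophage markers had 5 of 8 higher each, neutrophil markers 2 of 6 and lymphocyte markers 7 of 8, and none of these was lower, against 19.6% of genes higher and 23.6% lower. Of 7 tested epithelial markers, which the pancreatic tumor cells should carry, 4 were lower, all keratins (Krt7, Krt8, Krt18 and Krt19), and all 8 were detected, with sums from 16180 to 29310 in untreated and from 6911 to 14940 in combination tumors. The others tested were not called, with log2 changes of 0.56 for Epcam, -0.27 for Cdh1 and -0.21 for Cldn4. With anti-LTβR alone, where Loxl4 was lower, 4 of the 7 tested epithelial markers were lower and none higher (limma, median log2 change -0.46), with sums from 13280 to 16400. Of the endothelial markers 4 of 8 were higher there and none lower (median 0.34), with sums from 1686 to 2365, as were 2 of 8 fibroblast, 3 of 8 macrophage and 3 of 8 lymphocyte markers, against 7.21% of genes higher and 8.1% lower. Of 8 mural cell markers, 1 was higher (Notch3 0.55) and 1 lower (Tagln -0.86). No marker of any of these 7 lists was at 0 in every library of a group, and their part in the enzymes' results was not tested.

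Tumors also held variable amounts of muscle and skin transcripts. Summed skeletal muscle markers ran from 5616 to 350100 normalized counts over the 32 tumors, with overlapping ranges in the 4 groups. The median was 8577 in untreated tumors and higher in each treated group, at 80030 with ADU-S100, at 103100 after anti-LTβR and at 99790 after both agents. Skin keratinocyte markers ran from 1163 to 55520, with medians of 12540, 4679, 4774 and 19600 in the same order. None of these 12 genes was called in combination against untreated tumors, where 19.6% of all genes were higher and 23.6% lower. Their part in the enzymes' results was not tested. Adipocyte markers, with 0 of 6 called in the same comparison, summed to between 565.4 and 5851 over the 32 tumors.

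Among tumors of the same group, 4 of the 5 enzymes that rose in the combination varied together, and Loxl3 had no pair past the threshold. After the group means were removed, 7 of 28 pairs were positively correlated at an adjusted p below 0.05 over the 28 pairs, and none negatively (permutation test within groups with 100000 resamples, two-sided, 32 tumors). Over all 155734776 pairs of the 17649 genes, 2.71% had an r of at least 0.53, the lowest of these 7, and 1.94% one of -0.53 or below, given as a description since genes are not independent. Of the 7, 6 were the pairs among Lox, Loxl1, Loxl2 and Plod1. Loxl1 and Plod1 had r = 0.82 and rho = 0.74 (permutation p 1e-05 and 2e-05, the former the smallest that 100000 resamples can give, adjusted p 0.00028 and 0.00056), and r = 0.74 without the 2 tumors farthest from the median. Within single groups of 8 tumors, r for this pair ran from 0.44 to 0.92, and for Loxl1 with Loxl2, at 0.61 over all tumors, from -0.04 to 0.83. Loxl2 and Plod1 had r = 0.71 and rho = 0.61 (permutation p 3e-05 and 0.00035, adjusted p 0.00042 and 0.00245), and r = 0.58 without those 2. The seventh pair was Loxl4 with Plod2, with r = 0.53 and rho = 0.55 (permutation p 0.00275 and 0.00184, adjusted p 0.0128 and 0.0103), and r = 0.59 without the 2 farthest. Within single groups, r for Loxl4 with Plod2 ran from 0.02 to 0.71. Lox and Plod1, at r = 0.54 over all tumors, had r = 0.44 without the 2 farthest.

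**Figure D5:**
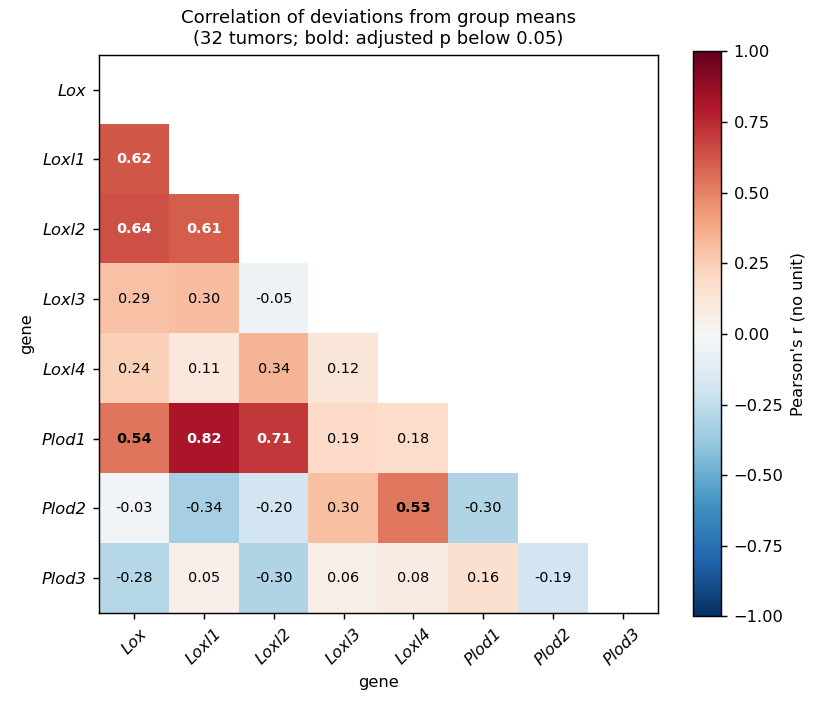
Pearson's r between the log2 levels of each pair of enzymes over 32 tumors after the group means were removed, with bold values at an adjusted p below 0.05. Lox, Loxl1, Loxl2 and Plod1 form the red block with r from 0.54 to 0.82, Loxl4 and Plod2 share 0.53, and no pair is negative at that threshold.

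The same deviations were set beside the mean log2 level of each marker list, as a description with no test over 32 tumors that share the library scaling. Loxl2 went with the substrate genes (r = 0.83) and the fibroblast markers (r = 0.75), Plod1 with the procollagen modification genes (r = 0.79) and the fibroblast markers (r = 0.69), and Loxl1 with the substrate genes (r = 0.71). Lox had r = 0.64 with both the substrate genes and the endothelial markers and 0.63 with the fibroblast markers. Plod2 stood apart with r = 0.76 to the low-oxygen genes and -0.55 to the fibroblast markers. Loxl3 had its highest value with the macrophage markers (r = 0.50), and Loxl4 with the low-oxygen genes (r = 0.40). Skeletal muscle markers had r = -0.64 with Loxl2 and between -0.43 and 0.42 with the other 7 enzymes. Loxl2 also had r = 0.56 with the skin keratinocyte markers and 0.46 with the epithelial markers, where the other 7 lay between -0.32 and 0.21 and between -0.43 and 0.31.

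The genes most like each enzyme over the 32 tumors, by Pearson's r of log2 levels among 17648 other genes, partly followed the same lines. Those most like Loxl2 were Col5a2 (r = 0.97), Gpr153 (0.97) and Thy1 (0.97), of which Col5a2 is a collagen and Thy1 a fibroblast surface marker. For Loxl1 they were Plod1 (0.94), Fkbp10 (0.94) and Tmem98 (0.92), and for Plod1 Cmtm3 (0.95), Loxl1 (0.94) and C1qtnf6 (0.94). Lox was most like Lrrc32 (0.90), which encodes a cell surface carrier of latent TGFβ, Spon1 (0.89) and Cd300ld (0.89). Loxl3 was most like Ifi30 (0.82), Grn (0.81) and Cotl1 (0.80), of which Ifi30 and Grn act in lysosomes. Loxl4 was most like Capn2 (0.91), Podxl (0.90) and Nadk (0.89). For Plod2 the genes were Edil3 (0.84), Fem1b (0.84) and Egln1 (0.84), an oxygen-sensing hydroxylase, and for Plod3 Abcb1b (0.82), Nt5e (0.81) and Stk38l (0.79). Differences between the groups enter these values. Within groups r ran from 0.48 for Loxl4 with Nadk to 0.94 for Loxl2 with Col5a2.

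Promoter sequences were at hand in RefSeq (GRCm38.p6) for 3 of the 8 enzymes, and they are shown because these 3 differed in the combination, with Plod1 higher, Loxl4 lower and Plod3 not called. Each is the run of 250 bases before the start on the gene's strand, at chr4:147936777-147937026 (minus) for Plod1, chr19:42612807-42613056 (minus) for Loxl4 and chr5:136986769-136987018 (plus) for Plod3. Capitals mark matches on either strand to ACGTG, the core bound by hypoxia-inducible factors, GGGCGG, the GC box, TATAAA, the TATA box, and GAAA followed after any 2 bases by GAAA, a core of interferon response elements. No match overlaps another.
Plod1: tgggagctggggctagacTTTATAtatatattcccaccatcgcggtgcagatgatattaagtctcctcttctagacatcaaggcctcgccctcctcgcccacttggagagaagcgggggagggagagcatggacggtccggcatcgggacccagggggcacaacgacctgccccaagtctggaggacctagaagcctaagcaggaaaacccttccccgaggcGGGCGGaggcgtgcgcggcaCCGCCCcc
Loxl4: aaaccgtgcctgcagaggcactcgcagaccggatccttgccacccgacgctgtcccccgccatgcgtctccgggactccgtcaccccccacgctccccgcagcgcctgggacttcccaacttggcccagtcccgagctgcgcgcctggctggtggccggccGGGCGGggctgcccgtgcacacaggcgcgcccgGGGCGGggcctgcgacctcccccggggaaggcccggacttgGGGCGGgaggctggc
Plod3: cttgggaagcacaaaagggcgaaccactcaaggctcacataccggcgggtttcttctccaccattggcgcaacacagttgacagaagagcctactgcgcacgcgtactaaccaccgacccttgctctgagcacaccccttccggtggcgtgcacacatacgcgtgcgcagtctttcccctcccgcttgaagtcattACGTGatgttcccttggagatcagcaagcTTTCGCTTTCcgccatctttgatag

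The GC share of these runs was 76% for Loxl4, 61.6% for Plod1 and 55.6% for Plod3, against a median of 52.4% over 32851 promoters. GC boxes numbered 3 in Loxl4 and 2 in Plod1, and 32.7% of all promoters held at least 1. Plod3 held 1 match each to ACGTG and the interferon response core, which occur in 16.6% and 2.98% of promoters, and Plod1 held 1 match to TATAAA (12.4% of promoters), 232 bases before the start. A match is a description of letters, and the levels of Plod3 lay on each other in untreated and combination tumors.

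The libraries held 12762453 to 15591986 recovered reads, with similar medians in the 4 groups. Combination tumor 7 was the least like its own group, with a median r of 0.93 over log2 levels. Leaving out untreated tumor 3 or 8 or combination tumor 3, 5 or 7, a choice made after the data were seen, took the number lower in combination against untreated tumors from 2 to 1 each time, since Plod2 lost its call. The number higher stayed at 5, except that it was 4 without combination tumor 3 or 5, where Loxl3 lost its call.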

How the data were processed

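Poly(A) RNA of 32 tumors was sequenced from strand-marked libraries. Per the submitters' notes the tools were cutadapt 1.9, FastQC, HISAT2, StringTie, DESeq2, edgeR, Partek and STAR on build mm39, and which of the aligners made each table was not settled. The authors deposited a signal for these libraries, with each library's estimated reads per gene divided by a size factor of its own, and a larger table of such signal values for 52 libraries, of which 20 belong to another experiment and enter no comparison (15 have contradictory labels). The larger table gave whole reads in the low values checked (100% of these were whole within 0.1). Higher values, such as those of the enzymes, were rounded to whole reads without this check. Plod3 has no row in the larger table. Gene set statistics deposited beside them, with scores and p-values, were not used, and per-sample columns left unused number 0.

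Groups come from the labels, and nothing in them says that replicate numbers pair mice. limma 3.58.1 (R 4.3.3, trend) was run on log2(value + 1) of the 16 libraries compared, or of all 32 for the interaction, on genes kept by filterByExpr (edgeR 4.0.16, minimum count 10), with Benjamini-Hochberg adjustment over all genes tested. Changes of low genes are understated on this scale. Alternatives were edgeR (TMM, RLE and library totals) and DESeq2 1.42.0 on recovered reads, the table of 52 libraries, other filters, a pseudocount of 0.5, a joint fit, the replicate block and libraries above 14000000 reads. The limma fit, edgeR with TMM and DESeq2 were tested on simulated data for combination against untreated tumors and for the interaction. The other settings and comparisons were not simulated. Exon lengths and overlaps come from GENCODE on GRCm38, and levels between genes were compared per kb of merged exon.

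The 8 enzymes, the gene lists and the tests were chosen with earlier results of these data known. Besides the enzymes, the genes named are those called with the 3 largest changes in each direction of each pathway list, and the 3 genes with the highest correlation to each enzyme. Bmp1 was named as the proteinase of Lox, Htra2 and Znhit1 as overlapping genes, and markers of other cell types by name after their values were seen, all outside that rule. At the lowest count, 190 reads for Loxl4, counting error alone is 7.26%. 1 further allele of the tumor line is not reported here.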

Additional observations from a re-analysis of the deposited data

Results flagged for a closer look

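In 6 of the 32 sets of 8 tumors (8 enzymes by 4 groups), the highest tumor lay far above the others by Dixon's test at its 95% critical value, which chance alone passes in about 1 group in 20 (1.6 of 32). Lox stood at 2444 normalized counts in untreated tumor 3, with the others between 1038 and 1660. Loxl1 reached 2270 in untreated tumor 8, with the others between 1779 and 2005. Combination tumor 5 was far above its group in both Loxl2 (5624, others 1801 to 3489) and Plod1 (3116, others 1462 to 2094). Plod2 stood at 2000 in anti-LTβR tumor 2 (others 1656 to 1809), and Plod3 at 3107 in combination tumor 3 (others 2679 to 2871). No low tumor was far from its group.

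The effect of ADU-S100 differed between tumors with and without anti-LTβR in 5 of the 8 enzymes by the interaction term of limma over 32 tumors, 4 positive and 1 negative, against 7.33% and 11% of all genes. The difference was 1.37 for Lox, 0.61 for Loxl1, 1.87 for Loxl2 and 0.67 for Plod1 on the log2 scale, and -0.55 for Plod2.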

How the results depend on the processing

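The 5 higher calls in combination against untreated tumors became 1 when a fold change of at least 2 was also asked for, and the 2 lower became 0. The lower calls numbered 1 with edgeR under TMM, RLE and library totals (1, 1 and 1), in the table normalized over 52 libraries (1), with no filter (1), with the replicate block (1) and with libraries above 14000000 reads (1). Leaving out 1 of 5 tumors gave 4 to 5 higher and 1 to 1 lower. With anti-LTβR against untreated tumors the lower call fell to 0 at 2-fold, and without 1 tumor the higher calls ran from 0 to 1. Against anti-LTβR the combination had 2 higher and 0 lower at 2-fold, and 1 lower with the deeper libraries. Against ADU-S100 it had 2 higher and 0 lower at 2-fold. Between the single agents, where none was called, DESeq2 gave 1 higher and 1 lower, the table of 52 libraries 1 lower and the deeper libraries 1 higher. The interaction had 2 positive and 0 negative calls at 2-fold, and 2 negative with the replicate block. A fold threshold can only lower a count, and the cause of the other changes was not tested.

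The replicate block changed no other count of enzymes by over 1.5 times. In none of the 6 comparisons did every same-numbered pair have an r above 0.1. Mean r ran from -0.085 to 0.186, and between 2 and 6 of 8 pairs were above 0.1, most with ADU-S100 against untreated tumors.

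Values that changed sign were near 0 and not called. Loxl3 with ADU-S100 went to 0.0027 in the table of 52 libraries, 0.042 with the deeper libraries, and 0.062 and 0.0017 without untreated tumor 3 or 8. With the deeper libraries Loxl3 went to -0.068 in the combination against anti-LTβR and to -0.11 in the interaction, where leaving out single tumors gave -0.011 (without untreated tumor 3) to 0.082. Lox between the single agents went to -0.00077 in the table of 52 libraries.

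Counts of all genes called moved more. Over 11 settings (10 for the interaction), anti-LTβR against untreated tumors gave 794 to 1521 higher and 743 to 1845 lower, the combination against anti-LTβR 739 to 2304 and 711 to 2607, anti-LTβR against ADU-S100 273 to 863 higher, with up to 773 lower by DESeq2 and 173 in the joint fit of all groups (1 fewer with the replicate block), and the interaction 738 to 1692 and 830 to 2001. Correlated pairs numbered 7 of 28 with either pseudocount, and 7 of the 21 pairs without Plod3 in the table of 52 libraries.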

Other observations

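Of the other experiment, 5 libraries carry the combination in all their labels and 15 have labels that contradict each other. Their values in the table normalized over 52 libraries are given with no comparison. Of the 5 libraries, replicate 3 stood apart, with 8716257 recovered reads against 18028314 to 18789131 in the other 4. In those 4, Lox ran from 1399 to 3120 normalized counts, Loxl2 from 727.3 to 3380, Loxl1 from 808.8 to 2320 and Loxl4 from 143 to 215.6. Replicate 3 held 706.4, 1379, 6471 and 109.5 normalized counts of these genes in the same order. In the 15 libraries the medians were 1509 for Lox, 1177 for Loxl2, 1121 for Loxl1 and 189.7 for Loxl4.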
